A study of Homo sapiens with 6 samples.

Results

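Aminoacyl-tRNA synthetases are the enzymes that join each amino acid to its transfer RNA (tRNA), and their transcripts were measured here in SH-SY5Y, a widely used human cell line grown from a neuroblastoma of the sympathetic lineage. The genes were chosen by symbol. They comprise every symbol of 1 letter followed by ARS1 or ARS2, together with EPRS1, FARSA and FARSB and the scaffold genes AIMP1, AIMP2 and EEF1E1. RefSeq lists 40 such genes, and 32 of them carried a name on the array out of 17687 genes in all: 16 cytosolic synthetases, 15 mitochondrial synthetases and AIMP1. The other 8 were not analysed here. The rule uses symbols alone, but it was set with earlier results of these data known. Each of the 32 genes had 1 probe set.

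The study compared 3 samples labelled 15EN with 3 vehicle controls labelled VC, 1 Affymetrix whole-transcript array each. Per the labels' protocols all cells were induced with atRA (all-trans retinoic acid, a differentiation agent) over 96 hours, and the bioactive compound was given at 15 µM. That protocol text is the same for the VC samples, so the vehicle control rests on the descriptions and titles alone. The series title names eurycomanone from Eurycoma longifolia as the compound, the labels leave 15EN unexpanded, and the vehicle is not named. Replicates 1, 2 and 3 came from passages 33, 34 and 35 of this single line by their titles, while the descriptions give passage 33 throughout. Nothing else says that the samples were separate cultures, so p-values measure only how these arrays vary, and that variation may be technical.

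Cells use separate sets of synthetases in the cytosol and in mitochondria. Most mitochondrial enzymes have a nuclear gene of their own, marked by the 2 at the end of the symbol. GARS1 and KARS1 are exceptions that encode both forms, and EPRS1 joins the glutamyl and prolyl enzymes in a single protein. Several cytosolic synthetases sit in the multi-tRNA synthetase complex, held together by AIMP1 and other scaffold proteins. Uncharged tRNA activates the kinase GCN2 (EIF2AK4), which phosphorylates eIF2 and so favours translation of the transcription factor ATF4. Many cytosolic synthetase genes are known as ATF4 targets.

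Cytosolic synthetase transcripts were higher in the 15EN arrays for 8 of 16 genes at a limma adjusted p under 0.05, and lower for 0. These were FARSB, YARS1, CARS1, FARSA, RARS1, TARS1, KARS1 and GARS1, with log2 differences from 1.69 down to 0.78. Of the 15 mitochondrial genes 2 were higher, PARS2 and WARS2, and 0 were lower. The scaffold gene AIMP1 was higher. Over all genes 12.3% were called higher and 9.09% lower. The cytosolic share, 8 of 16, lay above that background, and the mitochondrial share of 13.3% lay close to it. At least 2-fold higher with an unadjusted p under 0.05 were 6 cytosolic and 1 mitochondrial genes, against 8.49% of all genes. The median log2 difference was 0.79 for the cytosolic genes, 0.46 for the mitochondrial genes and 0.01 for all genes. As deposited, 16 of 16 cytosolic differences were positive, 13 of 15 mitochondrial ones and 51.2% of those over all genes, but EPRS1, NARS1, FARS2 and SARS2 turned negative under some settings, removal of a trend with brightness among them (-0.045, -0.017, -0.029 and -0.11).

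Brightness differs between the classes and bears on how often a gene is called. All 16 cytosolic genes lay in the brightest tercile of genes by mean signal, where 21.9% of genes were called higher. Of the mitochondrial genes 4 lay in that tercile, with 0 called, and 11 in the middle tercile, with 2 called against 13.4% of all genes there. On all 6 arrays EARS2, VARS2 and AARS2 were dim, meaning a signal that over 10% of the negative-control probe sets exceed, and 6 of the 15 mitochondrial genes were dim on at least 1 VC array. No cytosolic gene was. The part of brightness in the difference between the classes was not tested beyond these values.

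**Figure D1:**
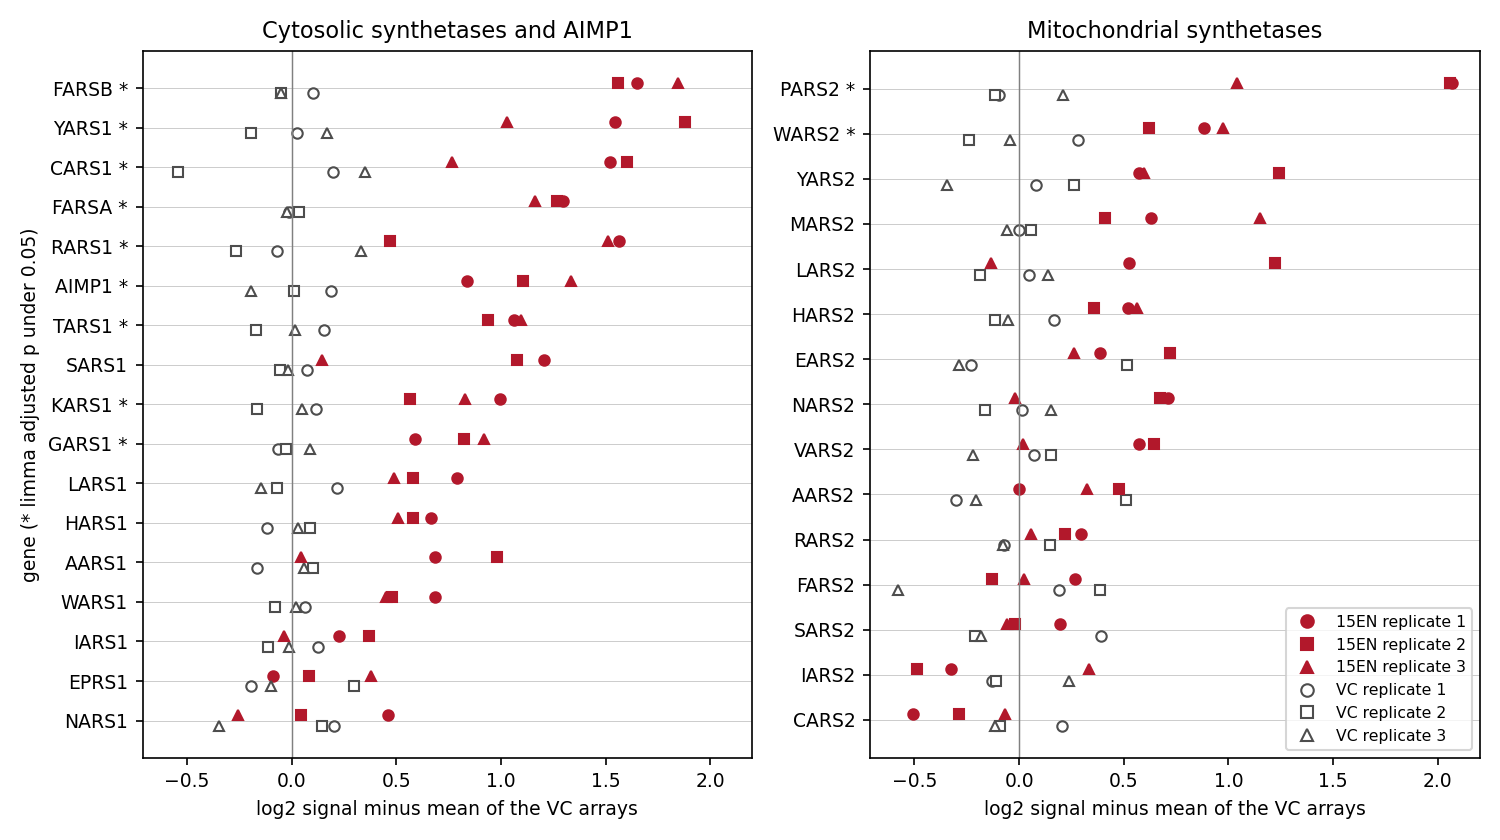
Each row is a gene, and each point is 1 array, plotted as log2 signal minus the mean of the 3 VC arrays (filled, 15EN; open, VC; shapes mark the replicate number; an asterisk marks a limma adjusted p under 0.05). Every 15EN point lies right of every VC point for 12 of 16 cytosolic genes and for AIMP1, against 5 of 15 mitochondrial genes.

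Signals that do not overlap between the groups are a second way to count. In 12 of 16 cytosolic genes every 15EN array lay above every VC array, compared with 5 of 15 mitochondrial genes and 19.7% of all genes. Below every VC array lay 0 members, against 16.6% of all genes. Medians over the class, relative to each gene's VC mean, were 0.89, 0.70 and 0.64 in 15EN replicates 1, 2 and 3 for the cytosolic genes. For the mitochondrial genes they were 0.52, 0.48 and 0.26, and for all genes -0.03, -0.04 and 0.07. The cytosolic median was thus the larger one in each of the 3 15EN arrays. No p is given for these medians, since the members were chosen with results of these data known.

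The start sites of these genes carry different motifs, shown here because the values below are set against them. RefSeq promoter windows (GRCh38.p14, 250 bases before to 50 after a start site) were found for 28 of the 32 genes. YARS1, LARS1, AARS2 and VARS2 are named only. The C/EBP-ATF composite element, which ATF4 binds together with C/EBP proteins, was searched as TGATGNAA on both strands. It occurs in 6 of 14 cytosolic genes with a window, 1 of 13 mitochondrial genes and 4.46% of all 27305 RefSeq genes with one. Every motif share given for all genes has these 27305 genes as its base, not the 17687 array genes. The stretches below run 5′ to 3′ on the gene's strand, with the match in capitals.
TARS1, chr5:33440947-33440994, plus strand: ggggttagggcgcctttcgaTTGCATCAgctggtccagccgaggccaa
CARS1, chr11:3057398-3057445, minus strand: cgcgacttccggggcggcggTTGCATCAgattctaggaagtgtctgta
GARS1, chr7:30594825-30594872, plus strand: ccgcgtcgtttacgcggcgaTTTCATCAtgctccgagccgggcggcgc
IARS1, chr9:92293683-92293730, minus strand: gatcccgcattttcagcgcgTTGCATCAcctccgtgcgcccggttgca
AARS1, chr16:70289666-70289713, minus strand: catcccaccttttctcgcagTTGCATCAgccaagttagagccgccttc
NARS1, chr18:57621795-57621842, minus strand: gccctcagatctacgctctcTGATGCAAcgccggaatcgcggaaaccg
YARS2, chr12:32756067-32756114, minus strand: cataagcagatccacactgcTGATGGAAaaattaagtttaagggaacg
In TARS1, CARS1, IARS1, AARS1 and NARS1 the matched letters read TGATGCAA on one strand or the other, a form that 1.08% of all genes hold. GARS1 reads TGATGAAA and YARS2 TGATGGAA. The element begins within 33 bases of the start site in TARS1, CARS1, GARS1, IARS1 and NARS1, and 187 bases before it in AARS1 and 197 in YARS2. Those with the element were called higher in 3 cases (CARS1, GARS1 and TARS1) and not called in 3 (AARS1, IARS1 and NARS1). Without it, 4 cytosolic genes were called (FARSA, FARSB, KARS1 and RARS1) and 4 were not (EPRS1, HARS1, SARS1 and WARS1). The element was therefore equally frequent among called and uncalled cytosolic genes, at 42.9% of the 7 genes with a window in each. A match describes letters only and is no evidence of binding.

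FARSB and PARS2, the genes of largest difference in their classes as deposited, both hold the NRF1 motif, named for a factor that regulates nuclear genes of mitochondrial function. It was searched on both strands with any base at the sixth position, and capitals mark it.
FARSB, chr2:222656071-222656120, minus strand: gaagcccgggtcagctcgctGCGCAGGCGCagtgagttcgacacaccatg
PARS2, chr1:54764491-54764540, minus strand: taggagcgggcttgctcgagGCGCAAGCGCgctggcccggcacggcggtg
This motif lies in 3 of 14 cytosolic genes (FARSB, SARS1 and TARS1), 3 of 13 mitochondrial genes (IARS2, MARS2 and PARS2) and 6.98% of all genes. IARS2, which holds it too, differed by -0.16 ± 0.26 and was not called. The ETS motif CCGGAAG lay in 9 of 14 cytosolic and 6 of 13 mitochondrial genes against 12.2% of all genes, and it occurred in 5 of 7 called and 4 of 7 uncalled cytosolic genes. The E-box CACGTG lay in 1 cytosolic and 3 mitochondrial genes (8.77% of all genes), and the antioxidant response core TGACNNNGC in 4 and 2 (16.1%). In all, 12 motifs were searched, and the ones described were picked after the search.

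Both subunits of the cytosolic phenylalanyl enzyme were higher. FARSB encodes its β subunit, and replicates 1, 2 and 3 of 15EN read 13.10, 13.01 and 13.30 on the log2 scale against 11.55, 11.40 and 11.40 in VC, listed in this order throughout. This is a log2 difference of 1.69 ± 0.20 (SE), 3.22-fold, with a limma adjusted p of 0.000464. All 15EN arrays lay well clear of all VC arrays. FARSA encodes the catalytic α subunit, with 15.23, 15.21 and 15.10 in 15EN and 13.92, 13.97 and 13.92 in VC. It differed by 1.24 ± 0.19 (adjusted p = 0.00172) with a narrow spread, an SD of 0.07 in 15EN and 0.03 in VC (n = 3). The mitochondrial enzyme for the same amino acid is a single chain from FARS2, which overlapped between the groups at 8.90, 8.50 and 8.65 in 15EN and 8.82, 9.02 and 8.05 in VC. Its difference of 0.05 ± 0.28 had a 95% interval of -0.56 to 0.67 and was not called (adjusted p = 0.928).

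YARS1, CARS1 and RARS1, the tyrosyl, cysteinyl and arginyl enzymes, varied more between arrays. YARS1 gave 10.62, 10.95 and 10.10 in 15EN and 9.10, 8.88 and 9.24 in VC, a difference of 1.48 ± 0.25 (adjusted p = 0.00278). CARS1 gave 11.97, 12.04 and 11.21 against 10.64, 9.90 and 10.79, a difference of 1.30 ± 0.31 (adjusted p = 0.0133). In both genes the third 15EN array was the lowest of its group and lay closest to VC. RARS1, a member of the multi-tRNA synthetase complex, showed another order, at 13.34, 12.24 and 13.28 in 15EN, where replicate 2 was the low array, and 11.70, 11.51 and 12.11 in VC. Its difference was 1.18 ± 0.31 (adjusted p = 0.0224). The call of CARS1 was lost without 15EN replicate 1 or 2 or VC replicate 2 (adjusted p = 0.0508, 0.0551 and 0.0656). That of RARS1 was lost without 15EN replicate 1 or VC replicate 1 or 2 (0.0832, 0.0782 and 0.102) and narrowly after removal of the brightness trend (0.0502).

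TARS1, the threonyl enzyme, separated cleanly at 13.29, 13.17 and 13.33 in 15EN and 12.39, 12.06 and 12.25 in VC, a difference of 1.03 ± 0.20 (adjusted p = 0.00539). The genes that serve both compartments differed by less. KARS1, the lysyl enzyme and also a complex member, gave 14.92, 14.49 and 14.75 in 15EN and 14.04, 13.76 and 13.97 in VC (0.80 ± 0.21, adjusted p = 0.0235). GARS1, the glycyl enzyme, gave 12.37, 12.60 and 12.70 and 11.72, 11.76 and 11.87 (0.78 ± 0.20, adjusted p = 0.0213). Neither gene overlapped between the groups, but both calls depended on single arrays. KARS1 missed the threshold without 15EN replicate 1 (adjusted p = 0.087) or VC replicate 1, 2 or 3 (0.0555, 0.106 and 0.0708), and GARS1 without 15EN replicate 2 (0.0632) or VC replicate 1, 2 or 3 (0.0766, 0.0822 and 0.0584). After removal of the brightness trend GARS1 also missed it (0.0603). Without both genes the cytosolic count was 6 of 14 and the median 0.71.

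Among the 8 cytosolic genes that were not called, 4 had 15EN arrays above all VC arrays. SARS1, the seryl enzyme, had the largest difference of them, at 11.28, 11.15 and 10.22 in 15EN and 10.14, 10.02 and 10.06 in VC (0.81 ± 0.28, adjusted p = 0.0704). Replicate 3 of 15EN lay near VC, 1.00 below the mean of the other two. SARS1 passed when the fit was blocked on replicate number (adjusted p = 0.0463), as it did without 15EN replicate 3 (1.14, adjusted p = 0.00145). LARS1 (0.62 ± 0.21), HARS1 (0.58 ± 0.20) and WARS1 (0.54 ± 0.20), for leucine, histidine and tryptophan, missed the threshold at adjusted p = 0.0623, 0.061 and 0.0839. In WARS1, whose mitochondrial partner was called, the arrays read 14.33, 14.12 and 14.09 in 15EN and 13.71, 13.56 and 13.66 in VC. For AARS1, the alanyl enzyme, the arrays were 12.13, 12.43 and 11.49 in 15EN and 11.29, 11.55 and 11.51 in VC (0.57 ± 0.26, adjusted p = 0.166). Here the third 15EN array, and no other, overlapped with VC.

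EPRS1, IARS1 and NARS1 had the smallest cytosolic differences. The fused glutamyl-prolyl gene EPRS1 gave 11.07, 11.24 and 11.54 in 15EN and 10.96, 11.46 and 11.06 in VC, a difference of 0.12 ± 0.23 with a 95% interval of -0.39 to 0.64. The isoleucyl gene IARS1 differed by 0.19 ± 0.21 (-0.28 to 0.65) and the asparaginyl gene NARS1 by 0.08 ± 0.26 (-0.49 to 0.65). Each interval ends below 0.79, the cytosolic median. AARS1, IARS1 and NARS1 carry the composite element printed above, and EPRS1 does not.

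AIMP1, the scaffold protein that also gives rise to a secreted cytokine, was called in every setting run. Its arrays read 12.05, 12.32 and 12.54 in 15EN and 11.40, 11.22 and 11.01 in VC, a difference of 1.09 ± 0.22 (adjusted p = 0.00645), with no overlap. Of the 5 complex synthetases measured, 2 were called (RARS1 and KARS1) and 3 were not (LARS1, IARS1 and EPRS1), with a median of 0.62, but 0 were called without 15EN replicate 1 or VC replicate 1 or 2 and 1 without VC replicate 3 or the brightness trend. Outside the complex 6 of 11 cytosolic genes were called as deposited, with a median of 0.81. Genes of the class I catalytic fold had 3 of 6 cytosolic members called, and those of class II 5 of 9, with EPRS1, which holds both folds, left out. The 5 cytosolic synthetases outside the list generally described as ATF4-induced had 4 called as deposited and a median of 1.18. Of these 4, KARS1 and RARS1 both lost their calls without 15EN replicate 1 or VC replicate 1 or 2. HARS1, uncalled as deposited, passed with array weights (limma adjusted p = 0.0294). The genes on that list had 4 of 11 called and a median of 0.62, against 12.3% of all genes and 21.9% of the brightest tercile. That count was 2 without replicate 2 of 15EN or of VC (8.32% and 7.36% of all genes). It was 8 without 15EN replicate 3 (18.2%) or with array weights (17.9%), and 11 with the hybridization controls set equal (68.7%). All of these lists hold cytosolic genes alone, and all 16 of those lay in the brightest tercile, where 21.9% of genes were called higher as deposited. These are counts over small lists written with results known, and the differences between them were not tested.

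PARS2, the mitochondrial prolyl enzyme, had the largest difference of all members as deposited, although FARSB exceeded it without 15EN replicate 1 or 2 or VC replicate 1 (1.70, 1.75 and 1.74 for FARSB against 1.55, 1.55 and 1.67). It gave 9.74, 9.73 and 8.71 in 15EN and 7.57, 7.56 and 7.88 in VC, a difference of 1.72 ± 0.29 (adjusted p = 0.0027). Replicate 3 of 15EN was 1.02 below the mean of the other two and still above every VC array, and 1 VC array was dim. WARS2, the mitochondrial tryptophanyl enzyme, gave 9.37, 9.11 and 9.46 and 8.77, 8.25 and 8.44 (0.83 ± 0.22, adjusted p = 0.0246). It lost its call without 15EN replicate 1 (adjusted p = 0.0743) or VC replicate 2 or 3 (0.115 and 0.0883). YARS2, for tyrosine, narrowly missed the threshold at 9.02, 9.69 and 9.04 in 15EN and 8.53, 8.71 and 8.10 in VC (0.80 ± 0.26, adjusted p = 0.052). Blocking the fit on replicate number brought YARS2 past it (0.0259). MARS2, for methionine, missed it as closely (0.73 ± 0.24, adjusted p = 0.0521), with its VC arrays dim throughout.

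The 11 other mitochondrial genes had log2 differences from -0.29 to 0.54. HARS2 (0.48 ± 0.20, adjusted p = 0.128) was the only one of these without overlap between the groups. IARS2 and CARS2 had negative differences as deposited, -0.16 ± 0.26 and -0.29 ± 0.22, which turned positive (0.71 and 0.58) once the hybridization controls were set equal across arrays. That setting added 0.87 to every gene, and relative to this shift both stayed negative. With it 16 cytosolic and 13 mitochondrial genes were called higher, as were 68.7% of all genes. RARS2, the mitochondrial arginyl enzyme, gave 11.52, 11.44 and 11.28 in 15EN and 11.15, 11.37 and 11.14 in VC (0.19 ± 0.20), and CARS2 7.92, 8.14 and 8.36 and 8.64, 8.34 and 8.32.

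HARS1 and HARS2 start in opposite directions 85 bases apart on chromosome 5, so that their RefSeq promoter windows share 184 bases. The shared stretch is printed on the HARS2 (plus) strand, with both matches of the ETS motif in capitals.
HARS1 and HARS2, chr5:140691321-140691504, plus strand: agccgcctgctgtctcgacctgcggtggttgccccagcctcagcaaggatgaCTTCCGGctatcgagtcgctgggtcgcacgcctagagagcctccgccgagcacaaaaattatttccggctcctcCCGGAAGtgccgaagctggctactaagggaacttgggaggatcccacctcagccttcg
Differences of this pair were close to each other, 0.58 ± 0.20 for HARS1 and 0.48 ± 0.20 for HARS2. In both genes the groups stood apart, and neither was called in the fit as deposited.

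Cytosolic and mitochondrial genes for the same amino acid were set side by side in 14 pairs. In 5 pairs the cytosolic gene alone was called, in 2 the mitochondrial gene alone, in 0 both and in 7 neither. The cytosolic difference was the larger in 10 of 14. The widest gaps, cytosolic minus mitochondrial difference, were 1.63 ± 0.31 for FARSB and FARS2 (SE over arrays), 1.59 ± 0.46 for CARS1 and CARS2, and 1.19 ± 0.30 for FARSA and FARS2. EPRS1 and PARS2 went the other way at -1.60 ± 0.52. In these pairs, and in SARS1 and SARS2 (0.77 ± 0.33), the within-array difference of the pair did not overlap between the groups. Of all single genes, 19.7% lay wholly above VC in 15EN and 16.6% wholly below. No such share was computed for other pairs of genes, so the count of pairs without overlap does not set them apart. An exact two-sided permutation test of 3 against 3 arrays cannot go below p = 0.1, which these 5 pairs reached (0.28 after Benjamini-Hochberg adjustment over the 14). No pair could have passed 0.05 in this design, so the test says nothing on whether pairs differ. FARS2 and EPRS1 each enter 2 pairs, which are thus not independent.

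**Figure D2:**
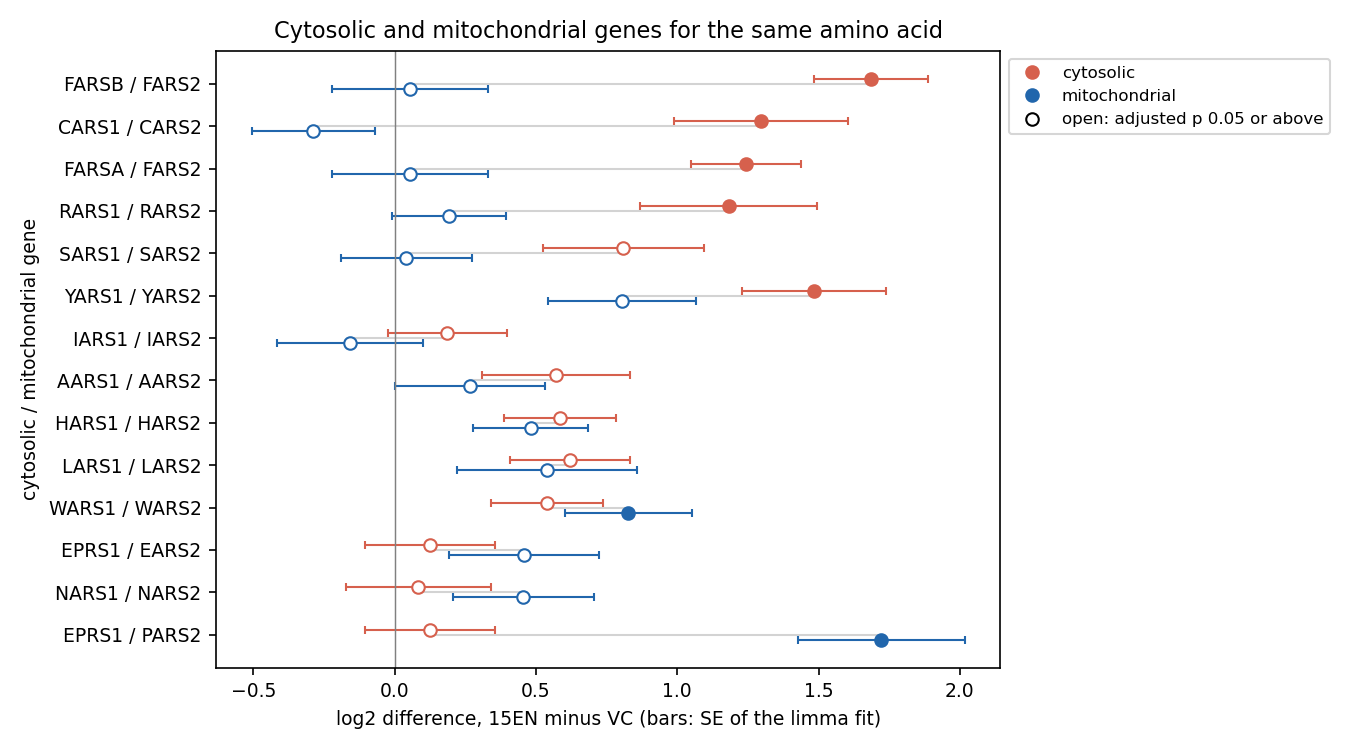
Log2 differences (15EN minus VC, bars are the SE of the limma fit) are plotted for the cytosolic (red) and mitochondrial (blue) gene of each amino acid, with filled points for an adjusted p under 0.05. The upper pairs have the cytosolic gene further right, by 1.63 for FARSB and FARS2, and the lowest, EPRS1 and PARS2, has the mitochondrial gene further right.

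The third 15EN array stood apart from replicates 1 and 2 over all genes (-56.7 on the second principal component, against 20.5 and 17.6), and this touched the members unequally. Of the 32 genes 17 were lowest and 10 highest in that array among the 15EN samples. PARS2, LARS2 and SARS1 lay 1.02, 1.01 and 1.00 below the mean of the other two 15EN arrays there, whereas IARS2 and MARS2 lay 0.74 and 0.63 above. Without this array 13 of 16 cytosolic and 6 of 15 mitochondrial genes were called higher, against 18.2% of all genes, and limma's array weights gave the same counts (17.9%). Without the dimmest tercile of genes they were 10 and 4 (19.5%). Without any other array the counts were 4 to 6 cytosolic and 1 to 3 mitochondrial genes, against 7.36% to 8.47% of all genes. FARSB, YARS1, FARSA, TARS1, PARS2 and AIMP1 were called in each of the 6 fits that left out 1 array.

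**Figure D3:**
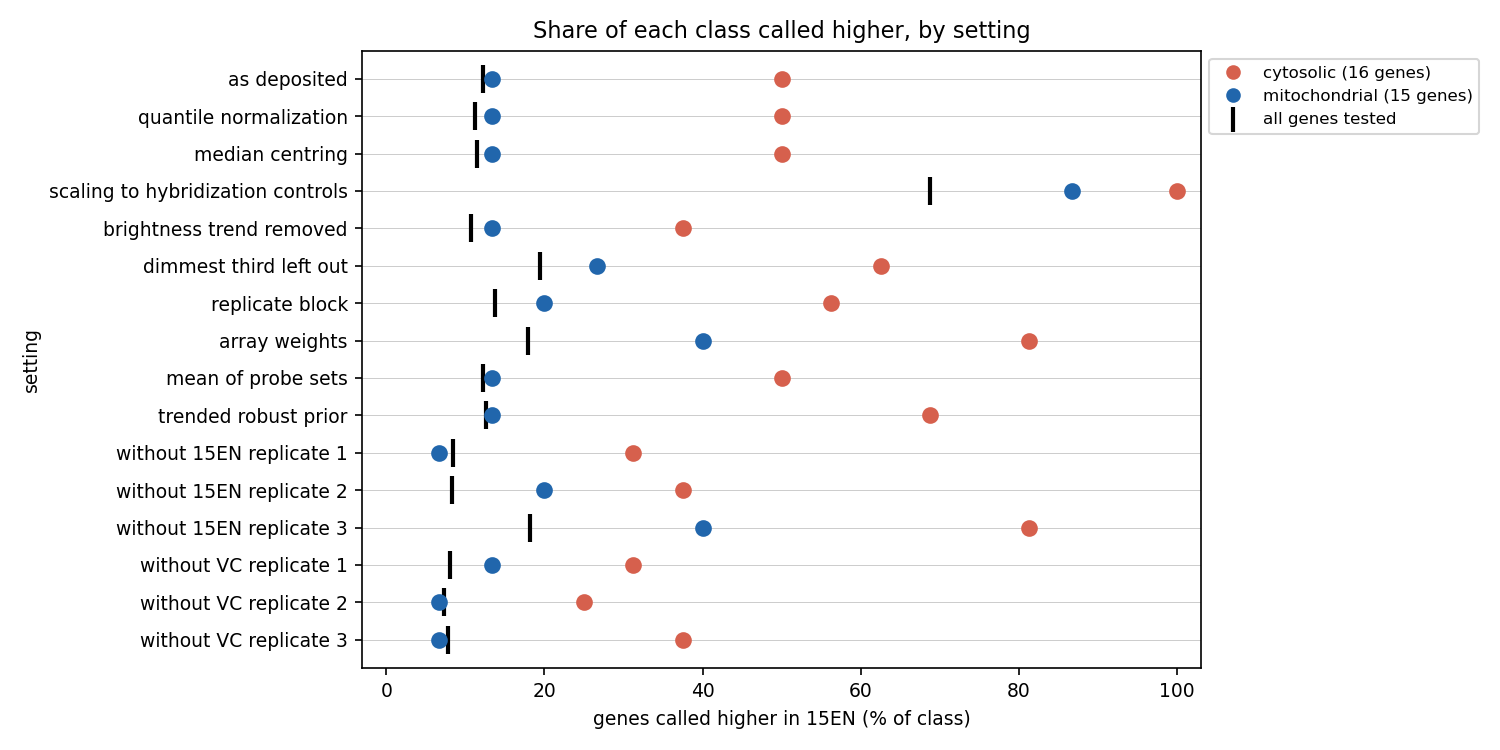
Share of genes called higher in 15EN for the 16 cytosolic (red) and 15 mitochondrial (blue) synthetases and for all genes tested (black bar), by processing setting. The cytosolic share lies right of the black bar in every row, and the mitochondrial share lies left of it in 3 of the rows that leave out 1 array.

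Other genes of tRNA use were counted from lists by function, and each count reads against 12.3% of all genes higher and 9.09% lower. In the brightest tercile 21.9% were called higher. That tercile held 7 of 10 synthetase-related genes, 27 of 53 tRNA-modifying enzymes and 6 of 22 genes of tRNA processing. It also held 4 of 5 cytosolic elongation genes, 5 of 9 mitochondrial translation factors, 9 of 10 eIF2 genes and 15 of 27 amino acid response genes. With the hybridization controls set equal, which called 68.7% of all genes higher, the counts below of 5, 21 and 8 higher genes became 9, 52 and 21. Genes related to the synthetases, for selenocysteine, amidation and editing, had 5 higher and 0 lower of 10. The 3 genes of this list that act after seryl-tRNA synthetase on the selenocysteine route, a grouping made after their values were seen, were among them: SEPSECS, which forms selenocysteine on the tRNA (1.77 ± 0.24, adjusted p = 0.00078), the kinase PSTK (1.05 ± 0.22, 0.0069, dim on all arrays) and EEFSEC, which brings the charged tRNA to the ribosome (1.42 ± 0.28, 0.00571). GATB, a subunit of the amidotransferase that completes mitochondrial glutaminyl-tRNA, was higher by 1.36 ± 0.22 (0.00227). Its other subunits, GATC (0.50 ± 0.22) and QRSL1 (0.44 ± 0.23), were not called. The fifth was TARS3, a second cytosolic threonyl enzyme (1.05 ± 0.22), named after its value was seen. All 5 remained called without any single array.

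Enzymes that modify tRNA had 21 higher and 1 lower of 53, with a median of 0.59. Of the 53, 16 were dim on at least 1 VC array and 3 on all 6 arrays. TYW5, which acts in wybutosine formation, gave 2.16 ± 0.32, the pseudouridine synthase TRUB2 1.47 ± 0.22, the guanosine methylase TRMT1 1.32 ± 0.19 and the Elongator subunit ELP3 1.56 ± 0.24 (adjusted p from 0.00127 to 0.00155). The 1 lower gene was TRMT2B (-1.01 ± 0.28), also named after its value was seen, and without any array except 15EN replicate 3 its call was lost (0.0568 to 0.111). Leaving out 1 array moved the higher count between 13 without VC replicate 2 (7.36% of all genes) and 30 without 15EN replicate 3 (18.2%). Processing of tRNA ends and introns had 8 higher and 0 lower of 22. Of these 22 genes 10 were dim on at least 1 VC array and 5 on all 6 arrays, called ones among both. The genes of smallest p in this list were the RNase P subunits RPP30 (2.14 ± 0.25) and RPP14 (1.30 ± 0.22), the tRNA ligase RTCB (1.59 ± 0.22) and the RNA kinase CLP1 (1.59 ± 0.26, with dim VC arrays).

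Cytosolic elongation factors and mitochondrial translation factors were counted in the same way, from shorter lists. Of 5 cytosolic elongation genes 2 were higher, EIF5A2 (1.17 ± 0.28, adjusted p = 0.0144) and EEF1A2 (1.42 ± 0.45, 0.0464). EEF1A2 was dim on 2 VC arrays and overlapped between the groups, at 7.66 in 15EN replicate 3 and 7.71 in VC replicate 2. EIF5A2 lost its call without 15EN replicate 2 or VC replicate 1 or 2 (0.052, 0.0666 and 0.0569), and EEF1A2 without any array except 15EN replicate 3 (0.0947 to 0.171). EEF1A1, the main carrier of charged tRNA, gave -0.35 ± 0.19 (adjusted p = 0.259), and EEF1D -0.27 ± 0.20. Of 9 mitochondrial translation factors 2 were higher, the recycling factor MRRF (1.47 ± 0.26, 0.00323) and the release factor MTRF1L (1.01 ± 0.24, 0.0149). MTRF1L lost its call without 15EN replicate 1 or 2 or VC replicate 2 (0.0552, 0.0591 and 0.0779). MTIF2 (0.53 ± 0.22) and MTRF1 (0.51 ± 0.25) were not called.

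Genes of the ATF4 response were both higher and lower. ATF4 was higher at 12.53, 13.13 and 12.70 in 15EN and 10.87, 10.38 and 10.32 in VC (2.27 ± 0.25, adjusted p = 0.000325). Also higher were SLC3A2, the shared heavy chain of amino acid transporters (2.86 ± 0.26), ATF3 (4.32 ± 0.56), DDIT3, the factor CHOP (2.78 ± 0.37), and CHAC1, which degrades glutathione (1.49 ± 0.36, adjusted p = 0.0153). ATF3, DDIT3 and TRIB3 were dim on all 3 VC arrays and CHAC1 on 2, so the sizes of their differences are uncertain. The call of CHAC1 was lost without 15EN replicate 2 or VC replicate 1 or 3 (0.0638, 0.0595 and 0.0723). The pseudokinase gene TRIB3 missed the threshold (1.05 ± 0.38, adjusted p = 0.0775) and passed when blocked on replicate number (0.0347).

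ASNS, asparagine synthetase and a standard target of the amino acid response, differed by -0.34 ± 0.24 with overlapping arrays, 10.16, 9.86 and 10.52 in 15EN and 10.74, 10.38 and 10.44 in VC (adjusted p = 0.373). In all, the amino acid response list had 9 higher and 2 lower of 27 and a median of 0.43. The 2 lower genes, named after their values were seen, were PHGDH, the first enzyme of serine synthesis (-1.71 ± 0.25), and DDIT4, an inhibitor of mTORC1 (-1.36 ± 0.25, but -0.49 and uncalled with hybridization controls set equal). GCN2 itself, EIF2AK4, gave 0.26 ± 0.31 (adjusted p = 0.645). Among 10 genes of eIF2 and its kinases 4 were higher and 1 lower. The eIF2 phosphatase subunits PPP1R15B (1.66 ± 0.23) and PPP1R15A (1.84 ± 0.32), eIF2α, EIF2S1 (1.40 ± 0.23), and eIF2β, EIF2S2 (1.00 ± 0.23), were the higher ones. EIF2S2 missed the threshold without VC replicate 2 (0.0628). The lower one, the kinase PKR, EIF2AK2, was named after its value was seen (-0.85 ± 0.20, but 0.02 with that setting, and uncalled without VC replicate 2 at 0.0731).

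**Figure D4:**
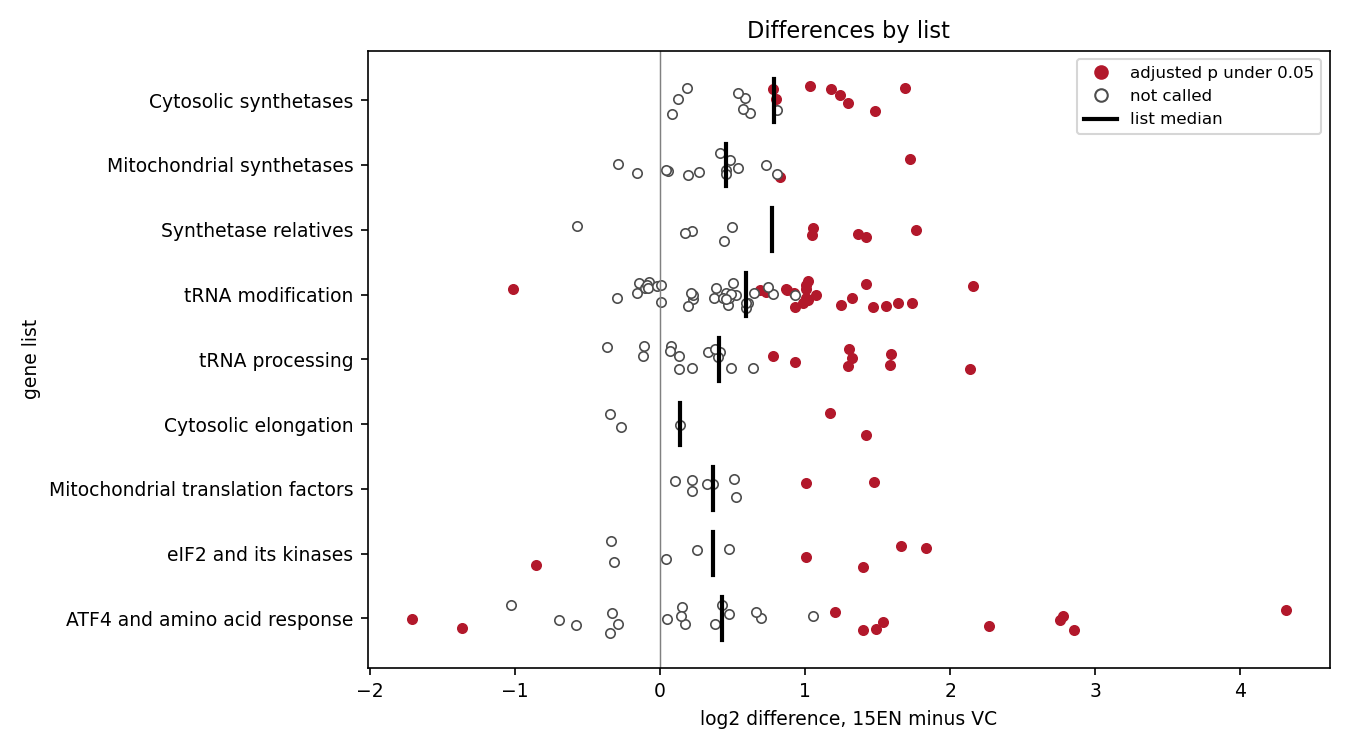
Each point is a gene, placed by its log2 difference (15EN minus VC) within its list, red where the limma adjusted p is under 0.05, with a black bar at the list median and vertical scatter for legibility only. Cytosolic synthetases lie entirely right of 0 with a median of 0.79, while the amino acid response list spans -1.71 to 4.32.

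Markers of the cell line itself moved alongside. For each list, linear signals were summed within an array, and the log2 of that sum is given. The brightest genes dominate such a sum. Of 11 measured markers of sympathetic neuroblastoma cells 0 were higher and 6 lower (9.09% of all genes were lower). Their log2 sum was 15.67 to 15.95 in 15EN and 16.59 to 17.05 in VC, with CHGA and TH dim on all arrays. Leaving out replicate 1 of either group left 3 lower, and with the hybridization controls set equal there were 2 lower and 3 higher. Those of substrate-adherent neuroblastoma cells had 2 higher and 3 lower of 9 (log2 sum 15.55 to 16.06 against 16.66 to 16.76, PRRX1 dim on all arrays). With those controls set equal they had 3 higher and 0 lower, and their median went from -0.60 to 0.27. Fibroblast markers had 0 higher and 1 lower of 7 (14.38 to 14.82 against 14.27 to 14.72, FAP dim on all arrays), and 3 higher and 0 lower with those controls set equal. None was lower when replicate 1 or 2 of 15EN, or replicate 2 or 3 of VC, was left out, and 2 were lower without replicate 3 of 15EN or with the replicate block. All 4 measured glial markers were dim on all arrays (log2 sum 7.49 to 7.79 against 7.51 to 7.83), with 0 called. In bulk samples, fewer cells of a type and less RNA per cell cannot be told apart, and the part of these markers in the synthetase differences was not tested.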

How the data were processed

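The authors deposited a log2 value for every probe set and array, produced with the Transcriptome Analysis Console per the submitters' processing notes. Version, summarization, normalization and build were not stated in what was used here, and the log2 scale was judged from the values. The 24351 probe sets held 2903 controls, 17709 with 1 gene symbol in the platform annotation, 3739 without a name and 0 with several. For each of 17687 genes the probe set of highest mean was kept, and no dim signal was removed.

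The test was limma 3.58.1 (lmFit, eBayes; R 4.3.3) with a group term alone. P-values were two-sided, adjusted by Benjamini-Hochberg over all genes and called under 0.05. The ± of a log2 difference is the SE of this fit, any SD has n = 3, and intervals are at 95%. Pairs of genes were compared by exact permutation (scipy 1.17.1). Precision is limited by the number of arrays. Hybridization controls were dimmer in 15EN.

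The members and lists were chosen with earlier results of these data known, so no list was tested. Pair comparisons, brightness terciles, motifs and list counts under alternatives were chosen after the data were seen. Named genes are all members and, per related list, up to 4 of smallest p, plus ATF4, DDIT3, ASNS, CHAC1, TRIB3 and EIF2AK4. Outside this rule, TARS3, GATC, QRSL1, TRMT2B, PHGDH, DDIT4 and EIF2AK2 are also named, with their values seen, as are marker genes dim on all arrays. Array values cover called members, their partners for the same amino acid and the largest uncalled member of each class, with some added after their values were seen.

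Replicate numbers pair the samples, since titles tie each to a passage and same-numbered arrays shared deviations from their group means (correlations across genes 0.229, 0.162 and 0.133). The block on this number was an alternative. The fit was tested on simulated data.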

Additional observations from a re-analysis of the deposited data

How the results depend on the processing

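Cytosolic synthetases called higher numbered 8 as deposited, 4 to 13 with 1 array left out, 16 with hybridization controls set equal and 13 with array weights. The other alternatives gave 6 to 11. Mitochondrial ones numbered 2, and 1 to 6 with 1 array left out, 13 with those controls set equal, 6 with array weights, 4 without the dimmest tercile of genes and 1 at 2-fold and an unadjusted p under 0.05. Setting the controls equal moved the class medians to 1.66 and 1.32, and the counts over all genes from 2179 higher and 1608 lower to 12150 and 437, since it adds a constant to every gene. Leaving out 1 array gave 1301 to 3227 higher and 970 to 2240 lower genes over all. Cytosolic medians then ran from 0.65 to 0.81 and mitochondrial medians from 0.29 to 0.52. With the replicate block 9 cytosolic and 3 mitochondrial genes were called, SARS1 and YARS2 being added, and no other call of a member changed. No synthetase was called lower in any setting.

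Signs turned in 6 members that were not called as deposited. After quantile normalization NARS1, FARS2 and SARS2 were -0.0084, -0.015 and -0.077. Without the brightness trend EPRS1, NARS1, FARS2 and SARS2 were -0.045, -0.017, -0.029 and -0.11. Array weights gave EPRS1 -0.0078. With hybridization controls set equal IARS2 and CARS2 were 0.71 and 0.58. Leaving out 1 array gave ranges of -0.0050 to 0.27 for EPRS1, -0.10 to 0.25 for NARS1, -0.24 to 0.25 for FARS2, -0.064 to 0.24 for SARS2 and -0.41 to 0.0052 for IARS2. The causes were not tested.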
